A study of Mus musculus with 23 samples.

Results

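The let-7 family is represented here by 9 mature miRNAs of mouse liver, mmu-let-7a-5p, mmu-let-7b-5p, mmu-let-7c-5p, mmu-let-7d-5p, mmu-let-7e-5p, mmu-let-7f-5p, mmu-let-7g-5p, mmu-let-7i-5p and mmu-miR-98-5p. They were chosen by name, as the 5p arms of the let-7 and miR-98 hairpins, among the 1218 mature miRNAs listed in the count table. All 9 members passed the filter on low counts, which left 386 miRNAs to be tested.

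Small RNA was sequenced from the liver of 23 male C57bl/6J mice of the third generation, with 1 library per mouse. The reference group (n = 8) came from the control lineage, bred on a growing diet with high-oleic sunflower oil, and was fed a standard low-fat diet. The HFoleic group (n = 8) came from the same control lineage and received a high-fat, high-sucrose diet. The HFepa group (n = 7) received that high-fat diet too, but came from the omega 3 lineage, bred on a growing diet with fish oil rich in eicosapentaenoic acid (EPA). HFoleic vs. reference therefore addressed the diet within 1 lineage, HFepa vs. HFoleic the lineage on 1 diet, and HFepa vs. reference both at once. The comparisons of HFoleic and of HFepa with the reference share the same reference libraries. No reference animal of the omega 3 lineage was analysed here, so that an effect of lineage alone on the low-fat diet cannot be read from these groups.

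A miRNA acts as a guide: loaded into an Argonaute protein, it pairs with messenger RNAs through the seed near its 5′ end and lowers their translation and stability. The let-7 miRNAs accumulate as cells differentiate, their maturation is blocked by the RNA-binding protein Lin28, and they are abundant in adult liver. Known let-7 targets include Hmga2, Ras genes and the receptors for insulin and insulin-like growth factor.

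The mature sequences are shown because members of the family differ by very few bases, which matters for how their reads are counted. They are RefSeq sequences (GRCm38.p6), written 5′ to 3′, with the seed, bases 2 to 8, in capitals.
mmu-let-7a-5p: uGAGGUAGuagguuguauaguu
mmu-let-7b-5p: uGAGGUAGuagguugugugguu
mmu-let-7c-5p: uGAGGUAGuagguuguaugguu
mmu-let-7d-5p: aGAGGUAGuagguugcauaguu
mmu-let-7e-5p: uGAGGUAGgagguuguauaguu
mmu-let-7f-5p: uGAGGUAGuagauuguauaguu
mmu-let-7g-5p: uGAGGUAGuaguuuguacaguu
mmu-let-7i-5p: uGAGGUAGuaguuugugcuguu
mmu-miR-98-5p: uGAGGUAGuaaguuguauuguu

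All 9 members are 22 bases long and share 1 seed. Counted from 1 at the 5′ end, with the base of let-7a-5p written first, let-7c-5p carries A19G, let-7e-5p carries U9G and let-7f-5p carries G12A, so each of them is 1 base away from let-7a-5p. let-7b-5p carries A17G and A19G, let-7d-5p U1A and U16C, let-7g-5p G12U and U18C, and miR-98-5p G11A and A19U. let-7i-5p is the most distant from let-7a-5p, with the 4 changes G12U, A17G, U18C and A19U. Among the 36 pairs of members, 4 pairs differ by 1 base and 10 pairs by 2 bases. The alignment allowed mismatches, and how reads that fit several miRNAs were assigned is not given in the sources used here, so the counts of members 1 or 2 bases apart are uncertain to that extent.

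The 9 mature sequences arise from 12 hairpin genes in RefSeq GRCm38.p6, all of which lie inside another gene of GENCODE vM21. Mirlet7a-1, Mirlet7f-1 and Mirlet7d lie together on the minus strand of chromosome 13, at chr13:48538179-48538272, chr13:48537829-48537917 and chr13:48536012-48536114, within exonic sequence of the long noncoding gene 6720427I07Rik. Mirlet7c-2 (chr15:85706603-85706697) and Mirlet7b (chr15:85707319-85707403) lie 621 bases apart in exonic sequence of the noncoding gene Lncppara. Mirlet7f-2 (chrX:151912346-151912428) and Mir98 (chrX:151913214-151913321) lie 785 bases apart in an intron of Huwe1, which encodes a ubiquitin ligase. Mirlet7e (chr17:17830352-17830444) lies in an intron of Spaca6, Mirlet7g (chr9:106178840-106178927) in an intron of Wdr82 and Mirlet7c-1 (chr16:77599657-77599750) in an intron of Mir99ahg. Mirlet7a-2 (chr9:41536716-41536811) is intronic in the noncoding gene 3110039I08Rik, and Mirlet7i (chr10:122985640-122985724) overlaps an exon of the transcribed pseudogene D630033A02Rik. A mature count cannot separate the copies that give let-7a-5p, let-7c-5p or let-7f-5p.

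Levels are given as counts per 1e6 counts (CPM), scaled with the trimmed mean of M values (TMM). Library totals lay between 3725432 and 8139344 counts. They ran from 5242218 to 8139344 in the reference, from 4340903 to 7220112 in HFoleic and from 3725432 to 4947990 in HFepa. Depth therefore did not overlap between HFepa and the reference and cannot be told apart from the group there. The lowest count of any member was 747 reads of let-7e-5p in library 15, or a level of 172.1 before TMM scaling, with a 95% Wilson interval of 160.2 to 184.9, which covers counting error only. Libraries are named by the number in their label: the reference group holds numbers 1 to 8, HFoleic 9 to 15 and 23, and HFepa 16 to 22. No HFepa library is numbered below 12 and no reference library above 11, so in HFepa vs. reference the library number and the group cannot be told apart. Library 3, of the reference group, stood apart with a TMM factor of 1.257, a summed level of 4 hepatocyte miRNAs of 187271 CPM, where the other reference libraries held 292119 to 337660 CPM, and a summed level of 5 biliary miRNAs of 1094 CPM against at most 285 CPM in the others. Library 19, of HFepa, had a TMM factor of 1.128. Library 4 held 215 CPM of 3 muscle miRNAs, and library 5 held 2021 CPM of 3 pancreas miRNAs, where the reference medians were 5.97 and 17.2 CPM. The hepatocyte miRNAs, which include the liver-defining miR-122-5p, were present in every group, and none of the 4 was called in any comparison. Single miRNAs of other lists were: against the reference, miR-150-5p (1 of 5 leukocyte miRNAs) was lower in HFoleic (log2 fold change -0.94) and in HFepa (-1.40), as were miR-133a-3p (muscle) and miR-375-3p (pancreas), whose lists stood out in libraries 4 and 5. In HFepa vs. reference, miR-126a-5p (1 of 2 endothelial miRNAs) was called higher (0.25) and miR-429-3p (1 of 5 biliary miRNAs) lower (-1.22). The biliary list stood out in library 3. Without that library its sum was 198 ± 48.3 CPM in the reference, and it was 224 ± 30.3 CPM in HFepa. The value of miR-429-3p itself without library 3 is not given here. None of the listed miRNAs was called in HFepa vs. HFoleic by edgeR, and their part in the let-7 values was not tested.

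Together the 9 members made up between 3.95% and 6.91% of all miRNA counts of a library. Their summed level was 54332 CPM in the lowest reference library, 56231 at the median and 65521 in the highest. In HFoleic the sum ran from 41892 over a median of 55139 to 65373 CPM, and in HFepa from 44940 over 48125 to 63058 CPM. The 3 groups overlapped. The log2 ratio of the group means was -0.11 in HFoleic vs. reference, -0.18 in HFepa vs. reference and -0.075 in HFepa vs. HFoleic, where the pooled SD of the log2 sum within groups was 0.18. In libraries 1 to 11 alone the sign of the ratio turned in HFoleic vs. reference, to 0.099, with 63047 CPM in the 3 HFoleic libraries, and the 5 HFoleic libraries numbered from 12 on had a mean of 49486 CPM. In libraries 12 to 23 alone HFepa vs. HFoleic turned to 0.066. In liver tissue, fewer cells of a type and less RNA per cell cannot be told apart.

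**Figure D1:**
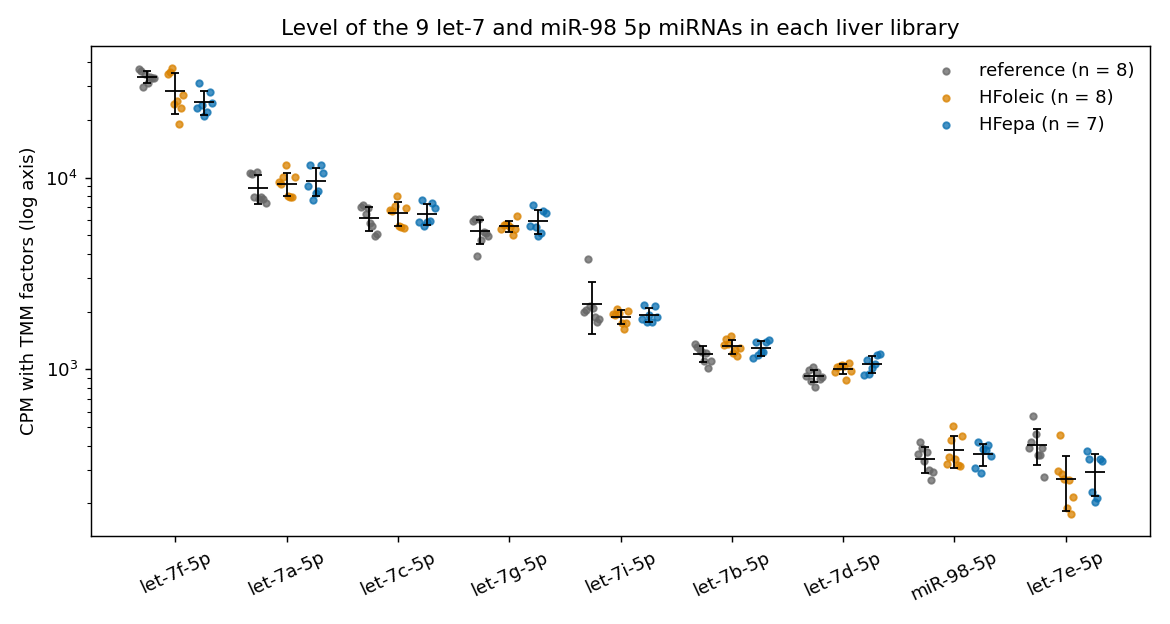
Level of each member in CPM with TMM factors on a log axis, 1 point per library, with the mean and SD of each group as bars; members are ordered by their mean. let-7f-5p lay above let-7a-5p in 23 of 23 libraries, and let-7e-5p and miR-98-5p were the lowest.

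The members differed far more from each other than between groups. let-7f-5p was the most abundant, at 29077 ± 5729 CPM (SD, n = 23), and exceeded let-7a-5p (9235 ± 1453 CPM) in 23 of 23 libraries by a median of 3.12 times. let-7c-5p (6372 ± 859 CPM) exceeded let-7g-5p (5585 ± 709 CPM) in 22 of 23 libraries, by a median of only 1.11 times. All members are the same length, so these levels need no correction for length. Whether adapter ligation captured each sequence equally was not tested, so the order is one of counts. let-7i-5p (2000 ± 415 CPM), let-7b-5p (1269 ± 119 CPM) and let-7d-5p (998 ± 97.3 CPM) followed, each above the next in 23 of 23 libraries. miR-98-5p (360 ± 58.4 CPM) and let-7e-5p (322 ± 99.5 CPM) closed the order and did not separate, with miR-98-5p higher in 15 of 23 libraries.

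**Figure D2:**
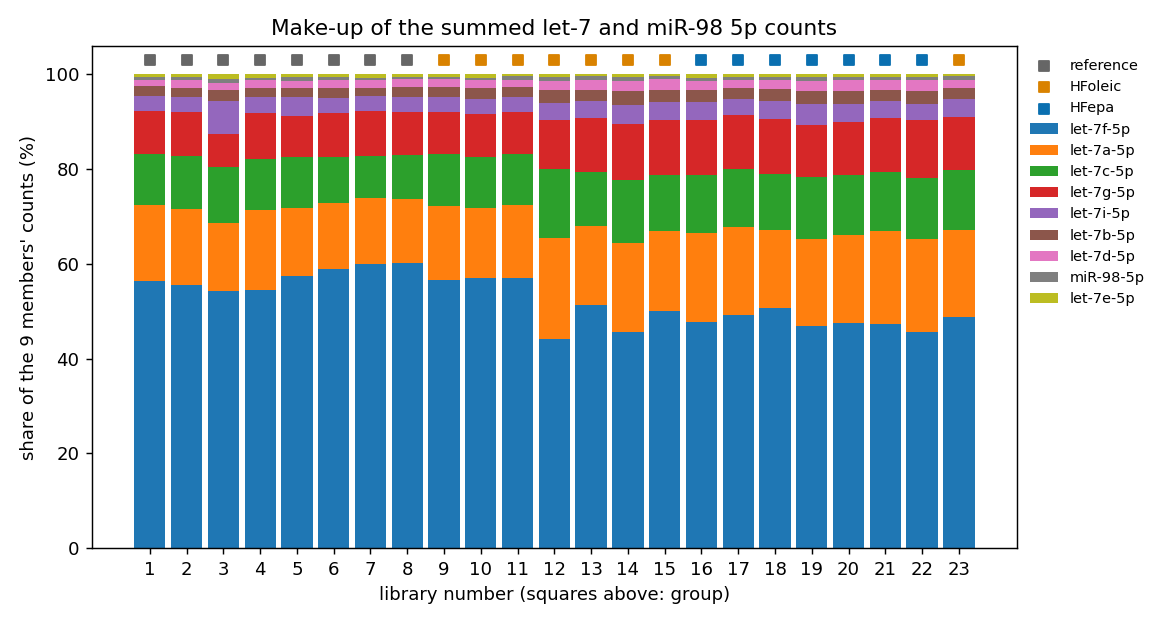
Share of each member in the summed counts of the 9 members, in percent, 1 bar per library in order of library number, with the group marked by a square above. let-7f-5p held 54.3% to 60.3% in libraries 1 to 11 and 44.3% to 51.4% in libraries 12 to 23.

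The make-up of the family changed at 1 place in the series of libraries. let-7f-5p held 54.3% to 60.3% of the members' counts in libraries 1 to 11 and 44.3% to 51.4% in libraries 12 to 23, with no overlap. let-7g-5p held 7.11% to 9.57% in the lower numbers and 10.4% to 12.1% in the higher ones, again with no overlap. Shares of 1 sum depend on each other, and the level of let-7g-5p did overlap. It ran from 3909 to 6111 CPM in libraries 1 to 11 and from 4977 to 7193 CPM in libraries 12 to 23. The ratio of let-7f-5p to let-7a-5p counts ran from 3.21 to 4.51 in libraries 1 to 11 and from 2.09 to 3.12 in libraries 12 to 23. The 3 HFoleic libraries numbered 9 to 11 lay with the reference libraries and the 5 others with HFepa. Without let-7f-5p, the summed level of the other 8 members was 25796 ± 2772 CPM in libraries 1 to 11 and 26458 ± 3512 CPM in libraries 12 to 23, which differ by less than 1 SD.

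let-7e-5p was the 1 member called in HFoleic vs. reference. Its level was 276 CPM in the lowest reference library, 389 at the median and 570 in the highest, which was library 3. In HFoleic it ran from 177 over a median of 265 to 453 CPM, and 5 of 8 HFoleic libraries lay below every reference library while library 10 lay above the reference median. The log2 fold change was -0.58 (SE 0.18, 95% interval -0.96 to -0.21, adjusted p = 0.0367, edgeR quasi-likelihood test, Benjamini-Hochberg). Calls required an adjusted p below 0.05 together with a log2 fold change beyond 0.25 in either direction; by this rule 12.4% of the 386 tested miRNAs were called and 7.51% were called lower, and 1 of 9 members is close to that background. The background itself ran from 12 to 53 called miRNAs over the fits that left out 1 library, with 12 without library 5, 20 without library 15, 21 without library 14, 24 without library 13 and 32 without library 4, and was 7 of 371 in a fit of only the 2 groups. The call of let-7e-5p was not stable. It was lost in 13 of the 23 fits that left out 1 library, namely library 1, 2, 3, 4, 5, 7, 12, 13, 14, 15, 21, 22 or 23, with values from -0.62 to -0.48, the latter without library 3. With a term that sets libraries 1 to 11 apart from 12 to 23, the log2 fold change was -0.22 (adjusted p = 0.767), and in libraries 1 to 11 alone it was -0.21 (adjusted p = 0.741). Quantile normalization with limma, upper-quartile factors, no filter, only the 2 groups and leaving out libraries 3, 4, 5 and 19 also ended the call, with adjusted p from 0.0539 to 0.191.

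let-7f-5p was the 1 member called in HFepa vs. reference. In the reference group it ran from 29830 over a median of 33417 to 36991 CPM, and in HFepa from 21060 over 23978 to 31050 CPM. 6 of 7 HFepa libraries lay below every reference library, and only library 17 lay within their range. The log2 fold change was -0.44 (SE 0.12, 95% interval -0.68 to -0.19, edgeR adjusted p = 0.0195). In this comparison 15.8% of all tested miRNAs were called and 10.6% were called lower, so 1 of 9 members is again close to the background, which ran from 32 to 66 called miRNAs over single libraries left out, with 32 without library 22, 36 without library 5 and 38 without library 16 or 18. The call was lost without library 22 (log2 fold change -0.41). It was also lost with quantile normalization and limma (-0.32, adjusted p = 0.237), with upper-quartile factors in edgeR (adjusted p = 0.0707) and without libraries 3, 4, 5 and 19 (edgeR adjusted p = 0.0631). In HFoleic the level of let-7f-5p ran from 19085 over 26074 to 37235 CPM, and the log2 fold change from the reference was -0.25 (SE 0.12, edgeR adjusted p = 0.155).

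**Figure D3:**
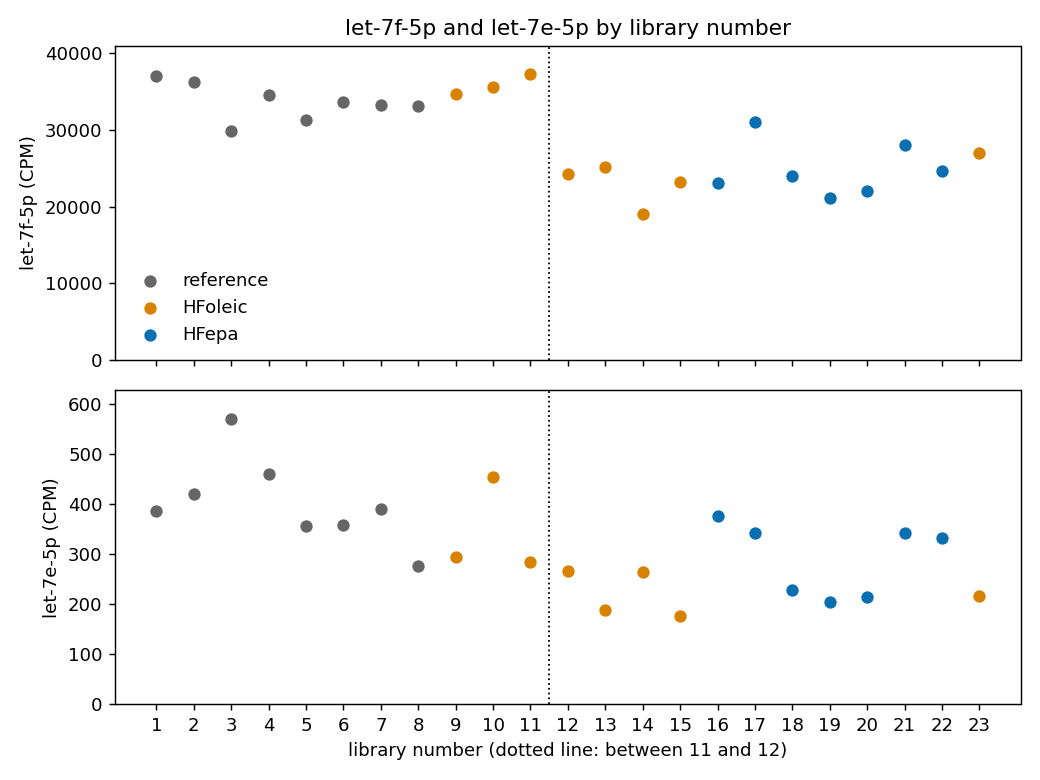
Level of let-7f-5p (upper panel) and let-7e-5p (lower panel) in CPM by library number, coloured by group; the dotted line lies between libraries 11 and 12. let-7f-5p lay between 29830 and 37235 CPM up to library 11 and between 19085 and 31050 CPM from library 12 on.

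Within the HFoleic group, which holds libraries on both sides of number 11, let-7f-5p divided by library number. The 3 libraries 9 to 11 held 34666, 35614 and 37235 CPM, above the reference median. The 5 libraries 12 to 15 and 23 held 24298, 25102, 19085, 23203 and 27046 CPM, below every reference library. With the term for library number, let-7f-5p turned to a log2 fold change of 0.093 in HFoleic vs. reference (edgeR adjusted p = 0.805) and to 0.16 in HFepa vs. reference (edgeR adjusted p = 0.841). In libraries 1 to 11 alone it was 0.099 in HFoleic vs. reference (95% interval -0.066 to 0.26, edgeR adjusted p = 0.687). With that term 0.259% of all miRNAs were called in HFoleic vs. reference and 0% in HFepa vs. reference, and in libraries 1 to 11 alone 0% of 409 were called. None of the 9 members was called in those 3 fits of edgeR. At an unadjusted p under 0.05 there was 1 member (let-7b-5p) in the first, 0 in the second and 1 (let-7b-5p) in the third. Over all miRNAs, 43 of 386, 16 of 386 and 28 of 409 lay under that level in these fits. The term is estimated from the HFoleic group alone, since the other groups each lie on 1 side of it. In HFepa vs. reference the SE of every member rose with the term. It went from 0.12 to 0.14 for let-7f-5p and from 0.066 to 0.11 for let-7d-5p. Calls with and without the term are thus not at equal precision. The labels do not say what the library number stands for.

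**Figure D4:**
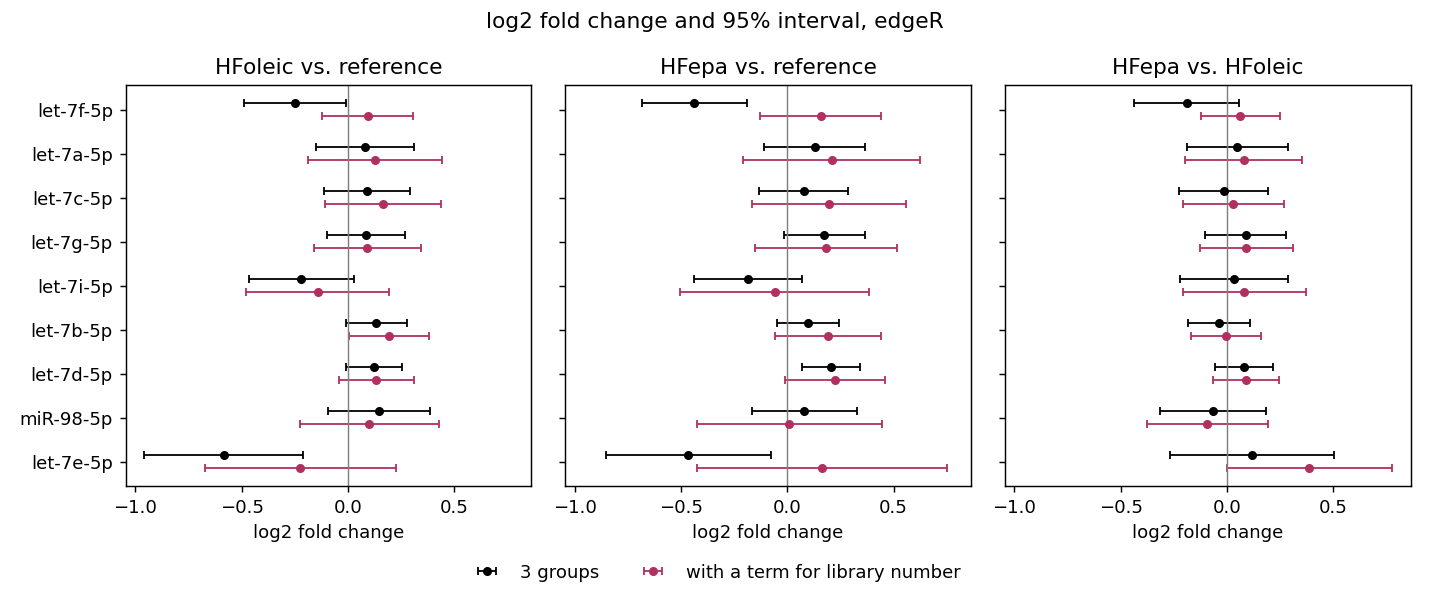
log2 fold change of each member with its 95% interval in the 3 comparisons, from edgeR with the 3 groups (black) and with a term for library number (red). Against the reference, let-7f-5p moved from -0.25 to 0.093 in HFoleic and from -0.44 to 0.16 in HFepa when the term was added.

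The other members were not called in either comparison with the reference. let-7d-5p came closest: it ran from 810 over 922 to 1028 CPM in the reference group, from 881 over 1039 to 1076 CPM in HFoleic and from 936 over 1066 to 1209 CPM in HFepa. All 7 HFepa libraries lay above the reference median, and 4 of them above every reference library. In HFepa vs. reference its log2 fold change was 0.21 (SE 0.066, edgeR adjusted p = 0.0340), which passed the adjusted p but not the fold change threshold; by the adjusted p alone 17.9% of all miRNAs and 2 of 9 members passed. With the term for library number the value was 0.22 (95% interval -0.013 to 0.46, edgeR adjusted p = 0.723). In HFepa vs. reference let-7e-5p had a log2 fold change of -0.46 (SE 0.19, edgeR adjusted p = 0.0923), from 204 over 333 to 377 CPM in HFepa.

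let-7i-5p ran from 1768 over 2007 to 3783 CPM in the reference group, from 1633 over 1941 to 2064 CPM in HFoleic and from 1762 over 1885 to 2179 CPM in HFepa. The highest reference value was that of library 3, and the next reference library held at most 2141 CPM. Without libraries 3, 4, 5 and 19, left out as a set picked once the values were known, its log2 fold change in HFepa vs. reference went from -0.18 to 0.045, and that in HFoleic vs. reference from -0.22 to -0.0025. The leukocyte and stellate cell miRNAs were also highest in library 3, at 2923 and 42509 CPM, and their part in the level of let-7i-5p was not tested.

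let-7a-5p, let-7b-5p, let-7c-5p, let-7g-5p and miR-98-5p had log2 fold changes between 0.077 and 0.17 in both comparisons, none of them called. For let-7a-5p the 95% interval ran from -0.15 to 0.31 in HFoleic vs. reference and from -0.11 to 0.37 in HFepa vs. reference. For let-7b-5p it ran from -0.0071 to 0.28 and from -0.050 to 0.24. For let-7c-5p it ran from -0.11 to 0.30 and from -0.13 to 0.29. The intervals of let-7g-5p were -0.098 to 0.27 and -0.015 to 0.36, and those of miR-98-5p were -0.094 to 0.38 and -0.17 to 0.33. Over the 9 members the median was 0.086 on the log2 scale in HFoleic vs. reference, where that of all 386 miRNAs was -0.0024, and 0.080 in HFepa vs. reference, where that of all was -0.057. In each of them 6 members were positive and 3 negative.

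In HFepa vs. HFoleic, which compares the lineages on the same diet, no member was called by edgeR, by DESeq2 or by limma after quantile normalization, and 0% of all 386 miRNAs were called by each of them. At an unadjusted p under 0.05, edgeR found 0 of 9 members and 22 of all 386 miRNAs. The log2 fold changes of the members lay between -0.19 (let-7f-5p, 95% interval -0.44 to 0.059) and 0.12 (let-7e-5p, 95% interval -0.27 to 0.51), and their lowest adjusted p was 0.901. In libraries 12 to 23 alone, let-7f-5p differed by 0.070 (95% interval -0.15 to 0.29) and let-7e-5p by 0.39 (95% interval 0.0073 to 0.78, edgeR adjusted p = 0.822).

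Across the 23 libraries, Spearman's rho between members was highest for let-7a-5p and let-7c-5p (0.93), which differ by 1 base, and was 0.84 for let-7b-5p and let-7c-5p, 0.82 for let-7c-5p and miR-98-5p, and 0.81 both for let-7a-5p and let-7b-5p and for let-7a-5p and let-7g-5p. let-7f-5p, also 1 base from let-7a-5p and encoded next to it on chromosome 13, had a rho of 0.23 with let-7a-5p and of -0.12 with let-7d-5p. Its highest rho was with let-7e-5p (0.63). Outside the family, the 5 tested miRNAs most like the summed members in log2(CPM + 1) were miR-320-3p (rho 0.76), miR-148a-3p (0.70), miR-28a-3p (0.70), miR-128-3p (0.67) and miR-92a-3p (0.65). All these values share libraries and their scaling, and are descriptions.

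Of the 1218 listed miRNAs, 1045 matched a RefSeq sequence by name, and 10 of those carry the let-7 seed. The tenth, mmu-let-7k, had at most 2 counts in a library and 5 in all, and was not tested. A close relative without that seed was counted more often, and was chosen after its values were seen: mmu-let-7j carries G8U relative to let-7i-5p, in the last base of the seed, and 2 more bases at its 3′ end, shown here because 1 base sets it apart within the length of let-7i-5p.
mmu-let-7j: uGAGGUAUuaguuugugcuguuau
Its level was 232 to 458 CPM, and its counts were 12.1% to 17.1% of those of let-7i-5p in every library. Both were highest in library 3. Whether reads of let-7i-5p entered the count of let-7j was not tested.

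The passenger strands, the 3p arms of the same hairpins, are usually degraded after the guide is loaded. In all 23 libraries together the 9 guides had 81.6 times the counts of the 12 listed passenger arms. Of these, 11 were tested. In HFoleic vs. reference none was called by edgeR, and 3 of them had an unadjusted p under 0.05, as did 110 of all 386 miRNAs. In HFepa vs. reference 2 were called lower, where 10.6% of all miRNAs were. None was called in HFepa vs. HFoleic by edgeR, with 0 at an unadjusted p under 0.05, where 22 of all 386 miRNAs were. The 2 arms were let-7d-3p, with 405 ± 35.6 CPM in the reference and 316 ± 20.1 CPM in HFepa (log2 fold change -0.36, SE 0.091, edgeR adjusted p = 0.0131), and miR-98-3p, with 12.7 ± 1.34 and 8.36 ± 1.92 CPM (-0.60, SE 0.16, edgeR adjusted p = 0.0156). Both divided by library number within HFoleic: libraries 9 to 11 held a mean of 417 CPM of let-7d-3p and 12.8 CPM of miR-98-3p, and libraries 12 to 15 and 23 held 320 and 8.38 CPM. The term for library number brought let-7d-3p to 0.021 and miR-98-3p to 0.013 on the log2 scale in HFepa vs. reference, and neither was called. The 3p arms let-7a-1-3p and let-7c-2-3p, named after their values were seen, have the same sequence, and their counts were equal in 18 of 23 libraries and never more than 2 apart. The same reads may be counted under both names, among the 11 tested arms and in the ratio of 81.6, which would then be too low. This was not tested.

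**Figure D5:**
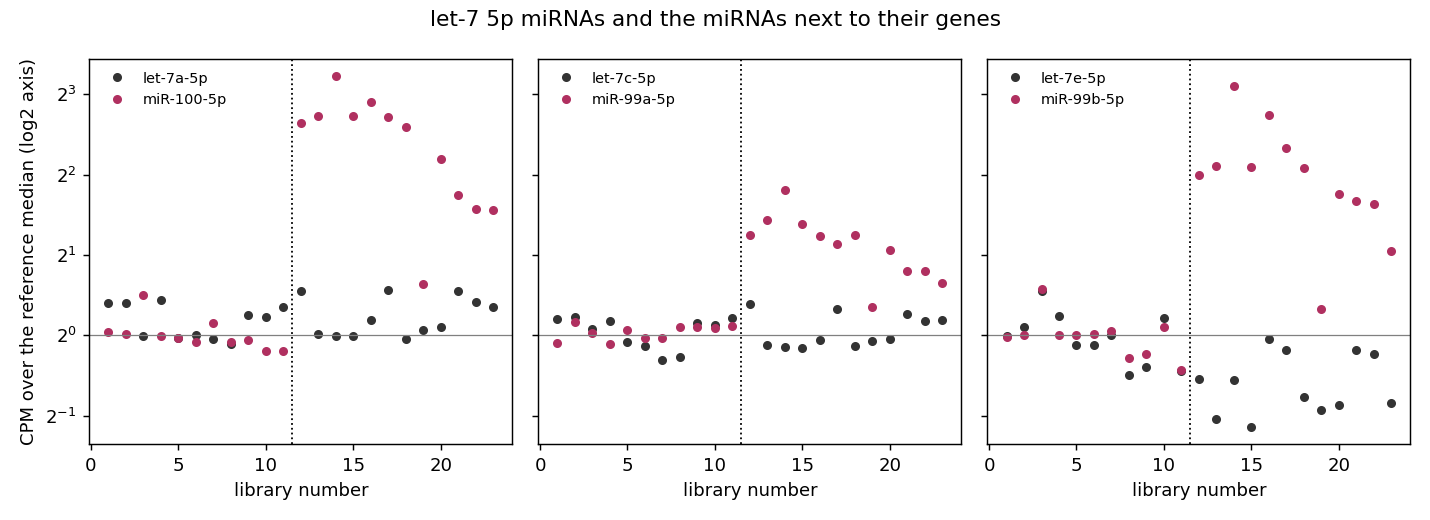
Level over the median of the reference group (log2 axis) by library number for let-7a-5p and miR-100-5p, let-7c-5p and miR-99a-5p, and let-7e-5p and miR-99b-5p; the dotted line lies between libraries 11 and 12. The miR-99 and miR-100 values stepped up from library 12 on, and the let-7 values beside them did not. The values of let-7a-5p and let-7c-5p also include copies of these miRNAs on other chromosomes.

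Several let-7 genes lie next to genes of the miR-99/100 and miR-125 families, 2 other conserved groups. Mir99a lies 656 bases from Mirlet7c-1, Mir125a 367 bases from Mirlet7e and Mir100 5211 bases from Mirlet7a-2. Mir125b-1 lies farther off, 45114 bases from Mirlet7a-2, and no distance is given here for Mir99b. The 5 neighbours were listed as members of these related families, not by distance. Mir135a-1, 24626 bases from Mirlet7g, was not among them. Of the 5 neighbours, 4 were called higher in HFoleic vs. reference, where 4.92% of all miRNAs were, and 4 in HFepa vs. reference, where 5.18% were. With the term for library number none of the 5 was called in either comparison, with adjusted p of at least 0.751 in edgeR. None was called in HFepa vs. HFoleic by edgeR, where 1 of the 5 and 22 of all 386 miRNAs had an unadjusted p under 0.05. miR-100-5p ran from 173 to 282 CPM in libraries 1 to 11 and from 309 to 1856 CPM in libraries 12 to 23, with no overlap. miR-99a-5p ran from 288 to 348 CPM and from 397 to 1092 CPM, also apart. The share of all tested miRNAs that divide at this place is not given here. miR-99b-5p overlapped only through library 19, with 489 to 987 CPM and 831 to 5688 CPM. miR-125b-5p ran from 510 to 722 CPM and from 590 to 1733 CPM, and overlapped through library 19 alone too, since the next lowest of the higher numbers held 937 CPM.

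The mature counts of the let-7 partners of these miRNAs did not step up with them. let-7a-5p and let-7c-5p also arise from Mirlet7a-1 and Mirlet7c-2, which lie on other chromosomes. Their counts therefore cannot show whether the copy beside Mir100 or Mir99a changed. let-7a-5p was 9038 ± 1318 CPM in libraries 1 to 11 and 9416 ± 1604 CPM in libraries 12 to 23, and let-7c-5p was 6332 ± 826 and 6408 ± 923 CPM. let-7e-5p was lower, at 387 ± 88.1 and 263 ± 69.0 CPM. The ratio of let-7e-5p to miR-99b-5p counts ran from 0.507 to 0.698 in libraries 1 to 11 and from 0.0464 to 0.246 in libraries 12 to 23, and the 3 HFoleic libraries 9 to 11 again lay with the reference group. miR-125a-5p was not called in either comparison with the reference, with 2458 ± 363 CPM in the reference, 2589 ± 587 in HFoleic and 3609 ± 1424 in HFepa. In HFepa vs. reference all 5 neighbours, miR-125a-5p among them, had an unadjusted p under 0.05 in edgeR, as did 110 of all 386 miRNAs. In HFoleic vs. reference 4 of the 5 did.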

How the data were processed

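Per the labels and methods, the libraries were made from liver total RNA with the TruSeq Small RNA kit; the authors removed adapters, mapped reads on the mouse genome by ncPRO-seq and Bowtie, allowing mismatches, and deposited raw counts per mature miRNA. The methods call the genome both GRCm38.p6 and mm9, and the submitters' processing notes give mm10 and bcl2fastq 2.17.1.14; the table holds no coordinates, and positions here are from RefSeq GRCm38.p6. The deposited table also has 23 columns of normalized values, group means, and comparison columns by the authors (log2 fold changes, p-values), all of which were not used.

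Samples were grouped by the diet and lineage of their labels. Counts were filtered with filterByExpr, scaled by TMM and fitted to the 3 groups with edgeR 4.0.16 (R 4.3.3) by the quasi-likelihood test with Benjamini-Hochberg adjustment over all 386 miRNAs. The study names DEGseq; edgeR, whose error is the spread between mice, was used instead. The SE is the log2 fold change over the square root of F. Family sums and correlations were descriptions without a test. Over all 253 pairs of libraries the chi-square statistic per degree of freedom was at least 22.3, so no 2 libraries agreed within sampling noise.

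The alternatives were DESeq2 1.42.0, quantile normalization with limma 3.58.1, other scalings and filters, 2 groups only, a term for library number, the libraries 1 to 11 or 12 to 23 alone, other thresholds and each library left out. Named were all 9 members, other miRNAs with their seed, up to 2 passenger arms, 5 neighbours of let-7 genes and the 5 miRNAs most like the family sum; let-7j, let-7a-1-3p, let-7c-2-3p and the called marker miRNAs were named after their values were seen. The members, lists and alternatives were chosen with earlier results of these data known. Python 3.11.15, pandas 2.3.3 and matplotlib 3.10.9 were also used.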

Additional observations from a re-analysis of the deposited data

Results flagged for a closer look

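In 2 of 30 sets of a member or the family sum within a group, 1 library lay far from the others by Dixon's criterion, which chance passes in about 1 of 20 sets. let-7i-5p was 3783 CPM in reference library 3, a gap of 0.815 of the group's range above the next library. let-7e-5p was 453 CPM in HFoleic library 10, a gap of 0.572 of the range.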

How the results depend on the processing

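Of the alternative values of the members' log2 fold changes, 274 of 297 kept direction and call in HFoleic vs. reference. The counts were 281 of 289 in HFepa vs. reference and 276 of 297 in HFepa vs. HFoleic. Other thresholds entered these totals only where a call changed, as for let-7d-5p by adjusted p alone in HFepa vs. reference. Their unchanged values were left out. The cause of the changes was not tested. The 1 call in HFoleic vs. reference fell to 0 with quantile normalization and limma, upper-quartile factors, no filter, only the 2 groups, the term for library number, libraries 1 to 11 alone and without libraries 3, 4, 5 and 19, and ran from 0 to 1 over single libraries left out. The 1 call in HFepa vs. reference fell to 0 with quantile normalization and limma, upper-quartile factors, the term and without libraries 3, 4, 5 and 19, was 2 by adjusted p alone, and ran from 0 to 1 over single libraries left out. It held with DESeq2 (adjusted p = 0.0214), as did that of let-7e-5p in HFoleic vs. reference (adjusted p = 0.0369). Over all miRNAs, quantile normalization with limma called 10 in HFoleic vs. reference and 24 in HFepa vs. reference, DESeq2 25 and 46, and edgeR 48 and 61. The family log2 ratio in HFoleic vs. reference turned from -0.11 to 0.099 in libraries 1 to 11 alone.

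Directions turned for let-7f-5p with the term (0.093 in HFoleic and 0.16 in HFepa vs. reference, 0.064 in HFepa vs. HFoleic), in libraries 1 to 11 alone (0.099) and in libraries 12 to 23 alone (0.070), and for let-7e-5p in HFepa vs. reference with the term (0.16). let-7i-5p in HFepa vs. reference turned to 0.045 without libraries 3, 4, 5 and 19, and let-7d-5p in HFoleic vs. reference to -0.016 with quantile normalization. In HFepa vs. HFoleic, let-7c-5p turned to 0.0025 with DESeq2, 0.00936 with 2 groups, 0.031 with the term, 0.037 in libraries 12 to 23 and 0.020 without the 4 libraries; let-7b-5p to 0.00624 with quantile normalization and 0.0052 in libraries 12 to 23; let-7i-5p to -0.010 with quantile normalization. Over single libraries left out, HFepa vs. HFoleic ran from -0.065 to 0.031 for let-7c-5p, -0.0088 to 0.11 for let-7a-5p, -0.00031 to 0.066 for let-7i-5p and -0.10 to 0.0030 for miR-98-5p. No paired analysis was possible because the replicate numbers only name libraries. Every member had at least 747 counts in each library, which bears on counting error alone. Depth and group cannot be told apart in HFepa vs. reference.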
